A study of Mus musculus with 6 samples.

Results

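The nuclear-encoded oxidative phosphorylation genes were examined in RNA from mature mouse sperm and from testes. Members were the RefSeq mRNA genes whose symbols named a subunit of NADH dehydrogenase (Nduf), succinate dehydrogenase (Sdh), the cytochrome bc1 complex (Uqcr and Cyc1), cytochrome c (Cycs and Cyct), cytochrome c oxidase (Cox4 to Cox8) or ATP synthase (Atp5), and the rule took 83 genes of the 14455 RefSeq mRNA genes listed in at least 1 sample. They comprised 32 genes of complex I, 4 of complex II, 9 of complex III, 2 of cytochrome c, 12 of complex IV, 15 of complex V and 9 assembly or associated genes. All animals were C57BL/6 mice (the substrain C57BL/6J in the methods of the study) with a labelled age of 3 to 5 months. The sperm group held 4 samples (sperm 1 to 4), each pooled from several mice, collected from the caudal epididymis and vas deferens and treated to lyse somatic cells. The testes group held 2 samples (testes 1 and 2) of whole tissue from the same mice, so that germ cells of all stages and somatic cells were measured together. The study set sperm 1 aside, and the comparison was accordingly made between sperm 2, 3 and 4 and testes 1 and 2, with sperm 1 shown beside them. In such bulk samples, fewer cells of a type and less RNA per cell cannot be told apart.

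Oxidative phosphorylation passes electrons from NADH and succinate through complexes I to IV in the inner mitochondrial membrane, with cytochrome c as the carrier between complexes III and IV, and complex V uses the resulting proton gradient to make ATP. Most subunits are encoded in the nucleus, and the mitochondria of mature sperm are wrapped around the midpiece of the tail. Several subunits have a second gene used in germ cells, of which Cyct, the testis form of cytochrome c, and Cox6b2, a testis form of a complex IV subunit, are well known.

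Sequencing depth limited what could be seen. The estimated counts assigned to RefSeq mRNA were 42390, 100027, 33511 and 54337 in sperm 1 to 4 against 322625 and 314273 in testes 1 and 2, which was 9.14% to 12.1% of all counts, the remainder belonging to other transcript classes. A gene's share is given in parts per 1000000 (ppm) of these RefSeq mRNA counts. A count of 0 allowed a share of up to 30.0 to 89.5 ppm in a sperm sample and up to 9.30 to 9.55 ppm in a testes sample (3 counts of the total). Intervals and these limits cover counting error only.

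The identity of the groups was checked against germ cell and somatic markers. Prm2, a protamine that packs sperm DNA, had 45, 148, 49 and 130 counts in sperm 1 to 4 against 465 and 220 in testes. Prm1, the other protamine, had 6, 2, 0 and 2 counts in sperm against 123 and 116 in testes. Of 8 spermatid and sperm markers, 1 was called higher in sperm (Tssk6) and 2 lower (Prm1 and Tnp1) by the test described below. The calls over all genes tested were 3.54% higher and 3.65% lower. The 8 markers together held 2029, 3820 and 3000 ppm in sperm 2 to 4 and 2565 and 1882 ppm in testes. The 4 spermatocyte markers held 80.0, 0 and 92.0 ppm in sperm 2 to 4 and 220 and 318 ppm in testes. The 4 spermatogonia markers held 20.0, 179 and 129 ppm against 753 and 990 ppm. Of 30 marker genes of Sertoli, Leydig, epididymal and leukocyte cells, 8, 1 and 4 had counts in sperm 2 to 4 and 16 and 19 in the testes samples. Their summed share was 349.9, 1194 and 276 ppm in sperm 2 to 4 and 1010 and 1045 ppm in testes. Star, a Leydig cell gene of steroid synthesis, supplied 16, 40 and 6 of those sperm counts, and the 15 epididymal and leukocyte markers together had 4, 0 and 5 counts in those samples against 15 and 24 in testes. These were 2 counts each of Cd4 and Cd52 in sperm 2 and 5 of Adam7 in sperm 4, while Cdh1 and Ptprc were at 0 in every sample. The part of these cells in the results below was not tested.

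The 2 testis isoforms that mark this gene group were barely counted. Cyct was listed with 1 count in testes 2 and 0 counts in all other samples. Cox6b2 had 2 counts in testes 1 and 1 count in testes 2, and 0 counts in all 4 sperm samples. At this depth neither gene could be compared between the groups. The windows around the start sites of both genes are shown with those of Cycs, the widely used form of cytochrome c, and of the pair of members counted in every sample, Ndufa13 and Atp5f1 (Atp5pb in the current RefSeq naming). Each window covers 300 bases of the reference mouse genome (RefSeq, build GRCm38.p6) around an annotated start of the gene. Capitals mark matches to 6 short motifs searched on both strands, namely the NRF1 core CGCATGCG, the ETS/GABP core CCGGAAG, the CRE half-site TGACGT, the GC box GGGCGG, the CCAAT box CCAAT and the TATA box TATAAA.
Ndufa13, chr8:69901971-69902270, minus strand: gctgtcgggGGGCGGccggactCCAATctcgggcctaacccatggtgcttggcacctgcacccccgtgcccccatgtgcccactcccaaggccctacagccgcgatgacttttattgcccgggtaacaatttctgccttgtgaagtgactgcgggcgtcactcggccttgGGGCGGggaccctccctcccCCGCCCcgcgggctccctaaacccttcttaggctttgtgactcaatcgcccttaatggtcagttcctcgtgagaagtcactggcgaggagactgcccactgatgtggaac
Atp5f1, chr3:105959214-105959513, minus strand: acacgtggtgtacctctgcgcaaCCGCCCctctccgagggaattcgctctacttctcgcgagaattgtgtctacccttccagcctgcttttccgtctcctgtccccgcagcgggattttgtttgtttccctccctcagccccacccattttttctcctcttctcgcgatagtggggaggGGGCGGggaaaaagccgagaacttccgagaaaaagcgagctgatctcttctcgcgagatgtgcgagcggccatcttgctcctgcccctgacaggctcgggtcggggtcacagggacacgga
Cycs, chr6:50566520-50566819, minus strand: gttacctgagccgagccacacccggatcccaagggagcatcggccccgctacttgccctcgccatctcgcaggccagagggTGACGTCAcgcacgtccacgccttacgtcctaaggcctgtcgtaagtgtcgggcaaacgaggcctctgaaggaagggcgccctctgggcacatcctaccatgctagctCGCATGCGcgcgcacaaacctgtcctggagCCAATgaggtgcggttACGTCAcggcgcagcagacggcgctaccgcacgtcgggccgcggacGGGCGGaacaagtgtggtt
Cyct, chr2:76360404-76360703, minus strand: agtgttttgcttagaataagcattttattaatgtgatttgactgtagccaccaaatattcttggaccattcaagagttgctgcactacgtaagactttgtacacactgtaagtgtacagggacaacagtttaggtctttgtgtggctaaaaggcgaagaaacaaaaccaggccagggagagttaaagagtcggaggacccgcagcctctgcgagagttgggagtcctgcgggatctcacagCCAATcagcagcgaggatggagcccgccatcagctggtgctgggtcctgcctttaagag
Cox6b2, chr7:4753045-4753344, minus strand: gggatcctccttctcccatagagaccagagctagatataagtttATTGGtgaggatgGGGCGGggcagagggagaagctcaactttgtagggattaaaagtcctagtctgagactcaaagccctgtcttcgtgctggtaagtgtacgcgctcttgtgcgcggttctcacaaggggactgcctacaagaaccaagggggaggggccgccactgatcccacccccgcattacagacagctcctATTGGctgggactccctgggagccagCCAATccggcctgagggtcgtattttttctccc

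The Cycs window held an NRF1 core, 3 CRE half-site matches on the strands combined, of which a pair overlapped, a GC box and a CCAAT box. The Cyct window held only a CCAAT box among the 6 motifs, and its GC content was 48.3% against 65.0% for Cycs. The Cox6b2 window held a GC box and 3 CCAAT boxes. Windows were found for 68 member genes, 74 windows in all. The NRF1 core, bound by a known regulator of nuclear genes for mitochondria, was in 14.9% of the member windows and in 1.87% of all 32851 windows. The ETS/GABP core was in 20.3% against 8.86%, the GC box in 47.3% against 35.7%, the CRE half-site in 10.8% against 7.51%, the CCAAT box in 43.2% against 37.4% and the TATA box in 9.46% against 13.6%. The median GC content was 59.0% in the member windows and 52.7% in all windows. These are matches of letters only, and binding was not measured.

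Few members were detected in sperm. Of the 83 genes, 5, 27, 3 and 9 had counts in sperm 1 to 4, and 71 and 60 had counts in testes 1 and 2. This was 6.02%, 32.5%, 3.61% and 10.8% of the members in sperm, where 14.0%, 46.6%, 10.7% and 22.9% of all RefSeq mRNA genes had counts. In testes it was 85.5% and 72.3% of the members against 84.7% and 79.8% of all genes. In every sperm sample the percentage was below that of all genes, whereas in testes it was slightly above in 1 sample and below in the other. At equal depth the members were below all genes in testes as well, as given next, so that this contrast in direction held only at full depth. These differences were not tested. The members are short, with a median longest transcript of 750 bases against 2707 bases over all genes, and 62.7% of them against 9.33% of all genes were of 1000 bases or less. Among genes of that length, 28.8% of the members and 28.5% of all genes had counts in sperm 2. In sperm 1, 3 and 4 the corresponding values were 1.92% against 6.45%, 1.92% against 3.93% and 3.85% against 10.8%. When every sample was thinned to 33512 counts, 4.8, 15.9, 3 and 7.75 members on average had counts in sperm 1 to 4 against 23.4 and 20.9 in testes. As percentages these were 5.78%, 19.2%, 3.61% and 9.34% of the members in sperm and 28.3% and 25.2% in testes, where 13.7%, 32.2%, 10.7% and 21.3% of all genes had counts in sperm and 41.3% and 37.5% in testes. The smaller number of genes counted in sperm at equal depth was thus shared by all genes. Taken as a fraction of the percentage for all genes, the member percentage was still lower in every sperm sample than in either testes sample. In percentage points, the gap between members and all genes was not larger in any sperm sample than in testes 1. Neither comparison was tested.

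**Figure D1:**
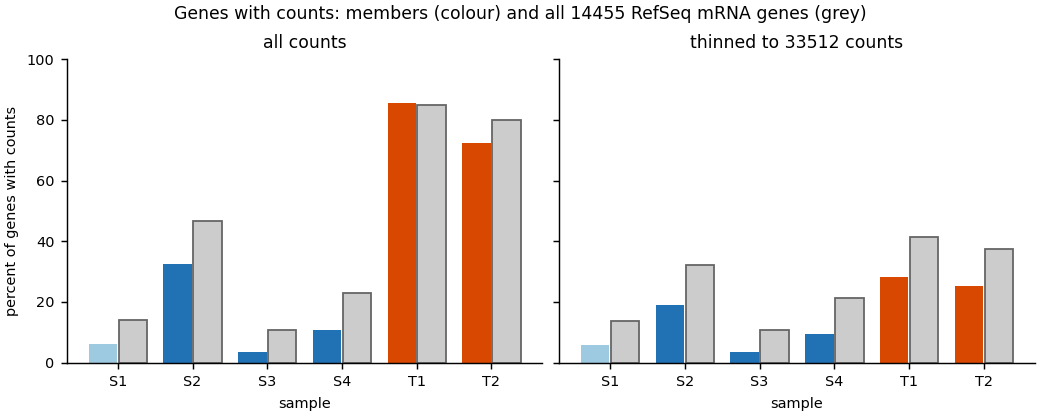
Percent of genes with counts (vertical axis) in each sample (S1 to S4, sperm; T1 and T2, testes), for the 83 members in colour and for all 14455 RefSeq mRNA genes in grey, at full depth on the left and thinned to 33512 counts on the right. The coloured bars lie below the grey bars in all sperm samples, and in T1 at full depth the bars are nearly level at 85.5% and 84.7%.

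The members divided sharply by how they were counted. There were 2 members with counts in every sample, Ndufa13 and Atp5f1, and 51 with counts in testes only. Of the 32 members with counts in any sperm sample, 21 had them in sperm 2 alone, which had the most counts of the sperm samples. Only 2 members had counts in sperm and none in testes. These were Cox7c, a small complex IV subunit, with 4 counts in sperm 2, and Ndufs6, an accessory subunit of complex I, with 3 and 4 counts in sperm 2 and 3. Of the 52 members at 0 in sperm 2 to 4, 44 would have given under 3 counts in those samples at their testes share, so that their absence from sperm was not detectable at this depth. For the other 8, counts were pooled within each group. The upper limit of the share in sperm was then 1.08-fold to 2.06-fold below the measured testes share. The limit was 3 counts over pooled sperm 2 to 4. It covers counting error in sperm only, and the error of the 11 to 21 pooled testes counts was left out. Replicates differed by more than counting error, and none of the 8 was called. A lower share in sperm was thus not shown for each of these genes.

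**Figure D2:**
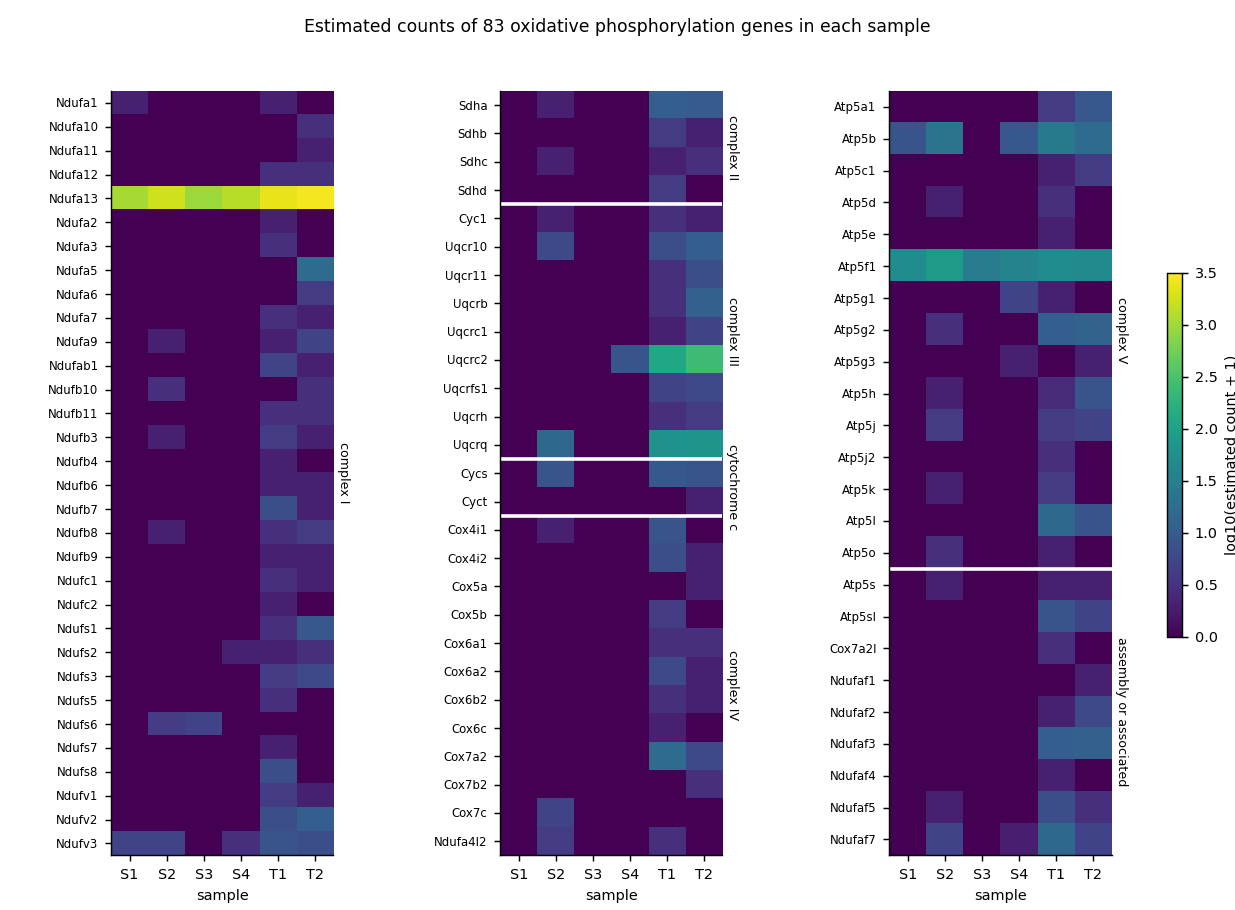
Estimated counts of the 83 members (rows, by complex) in each sample (columns; S1 to S4, sperm; T1 and T2, testes), coloured as log10 of the count plus 1. Ndufa13 and Atp5f1 stand out in every sample, most other rows are dark in sperm, and S2 has 27 members with counts.

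Ndufa13, an accessory subunit of complex I, carried most of the signal of the whole gene group. Its counts were 1060, 1793, 936 and 1313 in sperm 1 to 4 against 2447 and 2817 in testes 1 and 2. As shares these were 25006, 17925, 27931 and 24164 ppm in sperm and 7585 and 8964 ppm in testes, and no sperm sample overlapped a testes sample. Ndufa13 ranked between 3 and 5 among all genes in the sperm samples and 8 in both testes samples. It held 91.5% to 96.7% of all member counts in sperm and 83.2% and 82.5% in testes. Per transcript length its level was 1884 ± 424 FPKM in sperm (SD, n = 3) and 804 ± 136 FPKM in testes (SD, n = 2). By the edgeR quasi-likelihood test the log2 ratio of sperm over testes was 1.496, with a standard error of 0.22 and an adjusted p of 2.99e-09. With TMM normalization it was 0.59 (adjusted p = 0.454) and with DESeq2 0.42 (adjusted p = 0.681), so the direction was kept and the call was not. The choice of scaling moved all genes, since the median log2 fold change over the same 6828 genes was -1.19 with the RefSeq mRNA total and -1.83 with TMM. With DESeq2 it was -2.22, over 4180 genes and with another model, so that this value does not show the scaling alone. A few genes took much of the sperm counts: Abi3 alone held 10.1% to 14.2% of the RefSeq mRNA counts in the sperm samples and 1.04% and 0.979% in testes.

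The Ndufa13 gene lies at chr8:69894163-69902558 and shares 375 annotated bases with Tssk6, a testis-specific serine kinase gene at chr8:69902184-69903518 whose start window is on the opposite strand. The Ndufa13 window shown above is set around a start at position 69902020, inside the gene range, and the shared bases lie outside a transcript that begins there. Which start the counted Ndufa13 transcript uses was not determined. Tssk6 had 7, 30, 79 and 27 counts in sperm and 24 and 29 in testes, which edgeR put at 3.62 ± 0.83 (SE) on the log2 scale, higher in sperm, with an adjusted p of 0.000653. The libraries were made strand-specifically, but whether the counting used the strand is not given in the sources used here, and the part of the shared bases in either value was not tested.

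The summed share of all members was 26445, 19596, 28886 and 25268 ppm in sperm 1 to 4 against 9118 and 10860 ppm in testes. The mean was 24583 ± 4682 ppm in sperm (SD, n = 3) and 9989 ± 1232 ppm in testes (SD, n = 2), a ratio of 2.46, without overlap between the groups. These shares were scaled by the RefSeq mRNA total and were not rescaled with TMM. The TMM factors were 0.727, 2.29 and 1.30 in sperm 2 to 4 and 0.724 and 0.638 in testes. The lack of overlap was thus not shown on the TMM scale. Without Ndufa13 the order on the RefSeq mRNA total turned. The remaining 82 members held 1439, 1671, 955 and 1104 ppm in sperm and 1533 and 1896 ppm in testes, which gave means of 1243 ± 378 ppm and 1715 ± 257 ppm, a ratio of 0.725 and overlapping groups. The higher summed share in sperm thus rested on 1 gene.

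**Figure D3:**
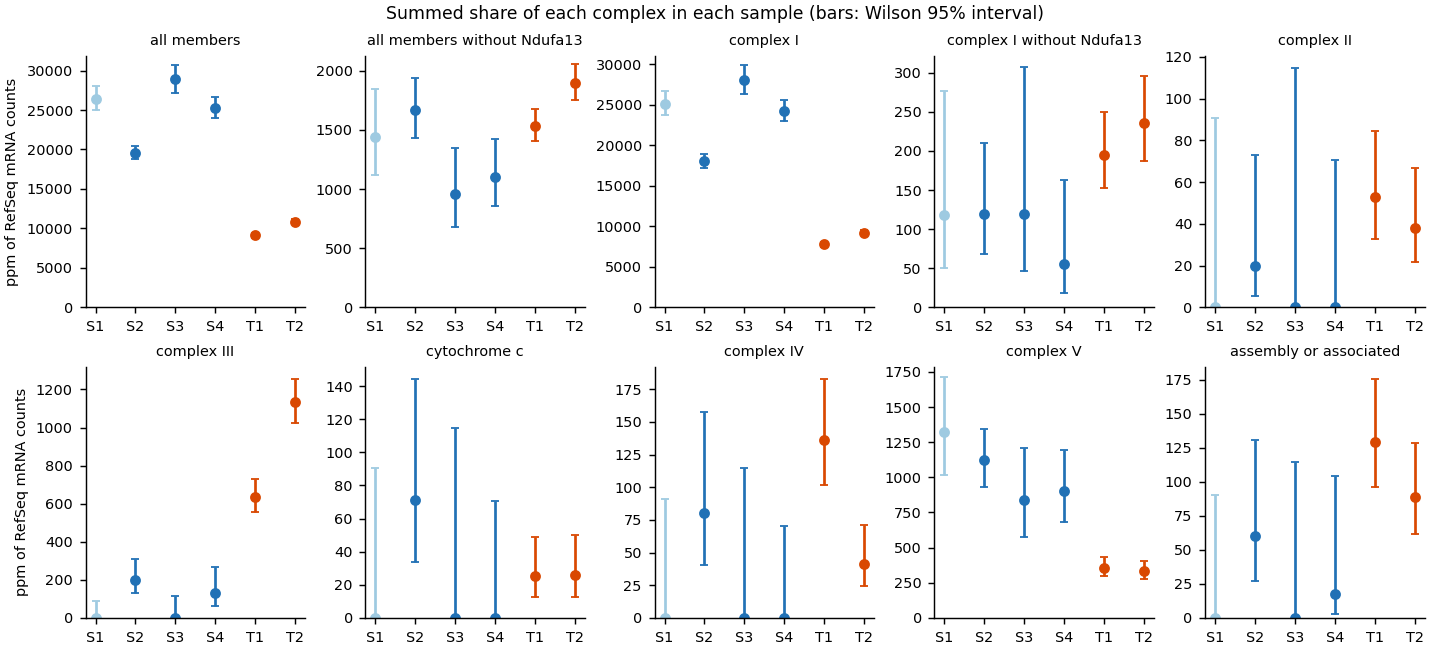
Summed share of RefSeq mRNA counts in ppm (vertical axis, a separate scale in each panel) for all members, for each complex, and without Ndufa13, in each sample (S1 to S4, sperm, with S1 in a lighter colour; T1 and T2, testes); bars are Wilson 95% intervals. All members together are higher in sperm, while without Ndufa13 the sperm and testes samples overlap.

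Across all genes tested, 3.54% were called higher and 3.65% lower in sperm (adjusted p under 0.05 and more than 2-fold). Of the 83 members, 22 had enough counts to be tested, and 1 was called in each direction, Ndufa13 higher and Uqcrc2 lower. The log2 fold change was above 0 for 6 of the 22 and below 0 for 16, with a median of -2.11 against -1.19 over all genes tested. Of the tested members, 9 (40.9%) had no count in sperm 2 to 4, against 22.4% of all genes tested. Their adjusted p ranged from 0.0746 to 0.108, and a fitted fold change against 0 counts is not a bound. With genes at 0 placed at the bound set by 3 pooled counts, and left out where they had none, the median was -0.35 over the members and -0.56 over all genes tested. The median of the members thus depended on how genes at 0 were placed. Placing them at the bound moves them toward no change, so it does not show whether the members were lower in sperm.

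**Figure D4:**
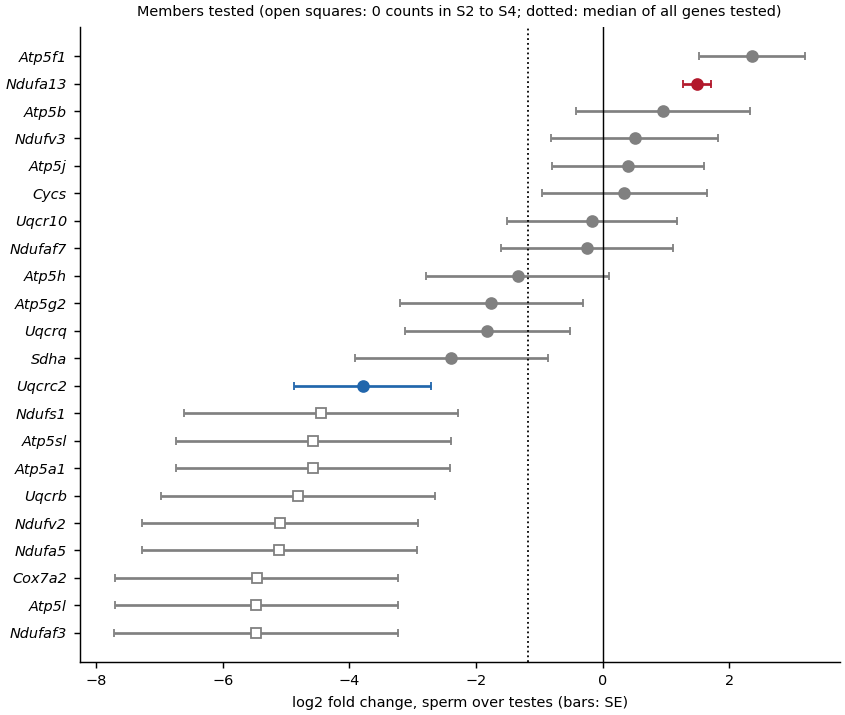
Log2 fold change of sperm 2 to 4 over testes 1 and 2 (horizontal axis, bars are SE) for the 22 members tested; red and blue mark the members called, grey those not called, and open squares those with 0 counts in S2 to S4. Ndufa13 has the shortest error bar at 0.22, and the dotted line marks the median of all genes tested at -1.19.

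Complex I without Ndufa13 held 118, 120, 119 and 55.2 ppm in sperm 1 to 4 against 195 and 235 ppm in testes. These shares rested on 5, 12, 4 and 3 counts in sperm and 63 and 74 in testes. No sperm share reached a testes share, and the ratio of the means was 0.456. The Wilson intervals were 50.4 to 276, 68.6 to 210, 46.4 to 307 and 18.8 to 162 ppm in sperm 1 to 4. In testes they were 153 to 250 and 188 to 296 ppm. Every sperm interval overlapped that of testes 1, and that of sperm 4 lay below that of testes 2. The difference was not tested. All 4 counts in sperm 3 were of Ndufs6, which had none in testes. Ndufv3, an accessory subunit, had 4, 4, 0 and 2 counts in sperm and 7 and 6 in testes, and a log2 ratio of 0.51 ± 1.32 (SE, adjusted p = 0.808) that turned below 0 with TMM. Ndufv2, a core subunit with an iron-sulfur cluster, had 6 and 10 counts in testes and none in sperm. Ndufa5, an accessory subunit, had 16 counts in testes 2 and none elsewhere, so the testes samples themselves differed.

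Complex II, which oxidizes succinate, had 2 counts in sperm 2, none in the rest of the sperm group, and 17 and 12 in testes. Sdha, its flavoprotein subunit, had 1 count in sperm 2 and 10 and 9 counts in testes (log2 fold change -2.39 ± 1.53, adjusted p = 0.241). Sdhb, the iron-sulfur subunit, had 3 and 1 counts in testes and none in sperm. Sdhc, a membrane anchor, had 1 count in sperm 2 and 1 and 2 in testes. The summed share was 20.0 ppm in sperm 2, 0 in the rest of the sperm group, and 52.7 and 38.2 ppm in testes.

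Complex III, which hands electrons to cytochrome c, had a ratio of sperm to testes of 0.124. Its share was 0, 199.9, 0 and 129 ppm in sperm 1 to 4 against 635 and 1133 ppm in testes, without overlap. Uqcrc2, a core protein of the complex at chr7:120635189-120659523, had 0, 0, 0 and 7 counts in sperm and 126 and 252 in testes. Its shares were 0, 0, 0 and 129 ppm in sperm and 391 and 802 ppm in testes, and edgeR gave a log2 ratio of -3.79 ± 1.08 (SE) with an adjusted p of 0.011. Significance was lost with TMM (adjusted p = 0.0548), with no filter on low counts (0.323), with filterByExpr (0.0582), with limma at a pseudocount of 0.1 (0.112), on single transcripts (0.142) and when sperm 2, testes 1 or testes 2 was left out (adjusted p = 0.165, 0.147 and 0.536), with the direction kept each time. Uqcrc2 shares 621 annotated bases with Pdzd9, which had 0, 1, 0 and 0 counts in sperm and 10 and 19 in testes. Uqcrq, a small subunit, had 0, 14, 0 and 0 counts in sperm and 60 and 64 in testes, a log2 ratio of -1.82 ± 1.30 (adjusted p = 0.3). Uqcr10, another small subunit, had 5 counts in sperm 2 and 6 and 10 in testes (log2 fold change -0.16 ± 1.34, adjusted p = 0.94).

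Cytochrome c overlapped between the groups. Cycs had 7.15 counts in sperm 2, no counts in its 3 counterparts, and 8.26 and 7.11 in testes, a log2 ratio of 0.34 ± 1.30 (adjusted p = 0.87). In testes 2 the single Cyct count was 12.3% of the counts of the pair. The share of a testis isoform was not defined in every compared sample for Cyct or for any other pair, so no test was run, and the smallest p that 3 samples against 2 could give was 0.2.

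Complex IV, the terminal oxidase, overlapped between the groups, with 80.0 ppm in sperm 2, 0 in the rest of the sperm group, and 136 and 41.4 ppm in testes. Cox7a2, a small subunit, had 16 and 5 counts in testes and none in sperm (adjusted p = 0.0746). Cox4i1, the widely used form of subunit IV, had 1 count in sperm 2 and 7 and 0 in testes, and Cox4i2, its lung form, 6 and 1 counts in testes only. Cox6a1 had 2 counts in each testes sample, and Cox6a2, its striated muscle form, 5 and 1, with none in sperm for either. Cox7b2, a testis form, had 2 counts in testes 2 only. Ndufa4l2, a relative of the complex IV subunit Ndufa4, had 3 counts in sperm 2 and 2 in testes 1. Cox6b1, Cox7b, Cox7a1, Cox8a, Cox8b and Cox8c, the remaining genes of the isoform pairs, were not listed in any sample.

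Complex V was higher in sperm as a summed share of RefSeq mRNA counts, at 1321, 1120, 836 and 902 ppm in sperm 1 to 4 against 359 and 334 ppm in testes. The ratio was 2.75 without overlap, and the sums were not rescaled with TMM. Atp5f1, subunit b of the peripheral stalk, made up most of it in sperm. Complex V as a whole had 56, 112, 28 and 49 counts in sperm 1 to 4 and 115.68 and 105 in testes. Atp5f1 had 49, 81, 28 and 36 counts in sperm and 48 and 47 in testes. All complex V counts of sperm 3 were thus of Atp5f1, and without that gene sperm 3 would not be above testes. A higher share was not shown for the other complex V genes together. The share of Atp5f1 was 1156, 810, 836 and 663 ppm in sperm and 149 and 149.6 ppm in testes. Every sperm sample was above both testes samples. By edgeR the log2 fold change was 2.36 ± 0.84 (SE), and the adjusted p of 0.0593 did not pass the threshold. It passed when sperm 3 was left out (adjusted p = 0.000216) and when all 4 sperm samples were used (0.0323). It also passed with filterByExpr (0.0195) and with limma at pseudocounts 1 and 0.1 (0.0142 and 0.00571). It did not pass when sperm 2 or sperm 4 was left out (0.151 and 0.0943) or with no filter on low counts (0.3). Leaving out testes 1 or testes 2 gave log2 values of 2.35 and 2.36. With TMM the log2 value was 1.59 (adjusted p = 0.304) and with DESeq2 1.32 (adjusted p = 0.189). Atp5b, the catalytic beta subunit, had 7, 21, 0 and 8 counts in sperm and 25 and 16 in testes, a log2 ratio of 0.96 ± 1.37 (adjusted p = 0.633) that turned below 0 on the FPKM scale. Atp5g2, a gene for the membrane subunit c, had 2 counts in sperm 2 and 10 and 12 in testes (log2 fold change -1.76 ± 1.45, adjusted p = 0.376). Atp5g1, another gene for the same subunit, had 4 counts in sperm 4 and 1 in testes 1.

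**Figure D5:**
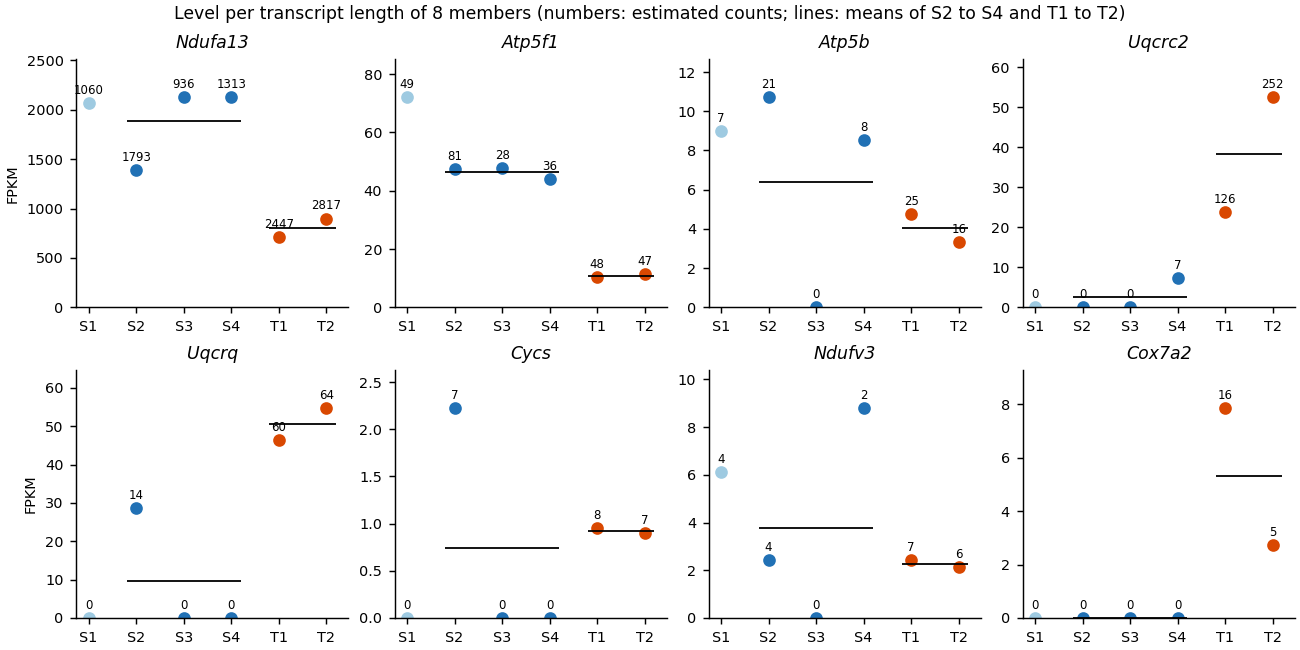
Level per transcript length in FPKM (vertical axis, a separate scale in each panel) of 8 members in each sample (S1 to S4, sperm; T1 and T2, testes), with the estimated counts rounded to whole numbers above each point and lines at the means of S2 to S4 and of T1 and T2. Ndufa13 and Atp5f1 are above the testes samples in every sperm sample, and Uqcrc2 is below them.

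The 9 assembly or associated genes held 0, 60.2, 0 and 17.9 ppm in sperm 1 to 4 against 129 and 88.8 ppm in testes. Ndufaf3, an assembly factor of complex I, had 10 and 11 counts in testes and none in sperm (adjusted p = 0.0746). Ndufaf7, another such factor, had 0, 4.02, 0 and 0.97 counts in sperm and 13.75 and 4.01 in testes (log2 fold change -0.24 ± 1.36, adjusted p = 0.911). Ndufaf5 had 1 count in sperm 2 and 6 and 2 in testes. Atp5sl had 7 and 4 counts in testes only, and Atp5s 1 count in sperm 2 and in each testes sample.

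Of 28 tested genes that otherwise serve the pathway, edgeR called 0 in either direction, where 3.54% and 3.65% of all genes were called. An unadjusted edgeR p under 0.05 was found for 13 of the 28 and for 39.6% of all genes tested. The numbers called higher and lower were 0 and 0 with TMM, 0 and 3 with DESeq2 (which gave an adjusted p for 14 of the 28), 1 and 9 with limma on log2(FPKM + 1), and 0 and 11 at a pseudocount of 0.1. Over all genes the calls were 23 and 90 of 6828 with TMM and 192 and 880 of 4180 with DESeq2. With limma they were 230 and 1529 of 6828, and 199 and 1792 of 6828 at a pseudocount of 0.1. Of 43 further assembly factors, 33 were listed and 14 tested, of which 5 had no count in sperm 2 to 4. Of 19 genes of pyruvate dehydrogenase and the citric acid cycle, 17 were listed and 9 tested, of which 5 had no count in sperm 2 to 4. Their summed share was 186, 298 and 184 ppm in sperm 2 to 4 and 301 and 320 ppm in testes. Of 10 regulators of mitochondrial gene expression, 8 were listed and 5 tested, of which 1 had no count in sperm 2 to 4. With genes at 0 placed at their bound, and left out where they had none, the median log2 ratios of these lists were -0.76, -0.46 and -0.62, against -0.56 over all genes tested. This placement moves genes at 0 toward no change, so these medians do not show whether the lists were lower in sperm. Pdha2, the testis form of the pyruvate dehydrogenase alpha subunit, had 3.76 and 7.58 counts in testes and none in sperm (adjusted p = 0.0961), and Pdha1, the widely used form, had 1 count in sperm 2 and 6 and 12 in testes (adjusted p = 0.253).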

How the data were processed

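RNA from 4 sperm and 2 testes samples was depleted of rRNA and sequenced strand-specifically in pairs. For each transcript the authors computed an estimated count, an FPKM value and a length, and deposited them without pooling the samples. The submitters' processing notes name HISAT and the mm10 build, and the paper's methods name SOAPaligner; which program made the counts is not given in the sources used here. RefSeq mRNA (NM_) rows were summed per gene, with absent rows as 0, rounded for tests and scaled by each sample's RefSeq mRNA total. Sperm replicates 2 to 4 were compared with both testes samples using edgeR 4.0.16 (quasi-likelihood, no TMM factors, genes with at least 10 summed counts, Benjamini-Hochberg adjustment over 6828 genes, called at adjusted p under 0.05 and over 2-fold). limma 3.58.1 on log2(FPKM + 1) and DESeq2 1.42.0 were alternatives. The fit was tested on simulated data. Motifs and start windows came from RefSeq (GRCm38.p6); all 83 members matched by accession and 80 by symbol. Shares have Wilson 95% intervals. Replicates differed by more than sampling noise (chi-square per degree of freedom 4.93 to 12.5), so none were merged for the tests, and p-values measure the spread between these pools. Counts were pooled within groups only for the limits of members at 0 and for the medians that use them.

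Named members were those called, the genes of the isoform pairs, and the 3 highest of each complex in testes and in sperm, 31 in all. The members and lists were chosen with earlier results of these data known.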

Additional observations from a re-analysis of the deposited data

Results flagged for a closer look

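Among the 4 sperm samples, 26 shares and counts were examined for a sample far from the others, and 9 had a gap to the nearest sample as large as the whole range (a ratio of 1.0). In each of the 9, only 1 sperm sample was above 0, and the ratio is then 1.0 by construction whatever that sample's value. Dixon's critical value, which chance passes in about 1 in 20 groups, does not apply to such zeros, so the ratio says nothing beyond which sample held the counts. Sperm replicate 2, the deepest of the sperm samples, was that sample for 8 of them, namely the shares of complex II, cytochrome c, complex IV, Atp5g2, Cycs, Sdha, Uqcr10 and Uqcrq. For Uqcrc2 it was sperm replicate 4. Several of these 9 hold the same counts, since Cycs is the counted gene of cytochrome c in sperm and Sdha belongs to complex II. None of the others was set apart.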

How the results depend on the processing

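The number of members called higher in sperm was 1, and 0 with TMM, DESeq2 or no filter on low counts; it was 2 with filterByExpr, with limma on log2(FPKM + 1) or log2(FPKM + 0.1), with all 4 sperm samples and with the total without the 10 highest other genes. The number called lower was 1, and 0 with TMM, no filter, filterByExpr or single transcripts; it was 8 with each limma fit, of which 6 were called in both and Uqcrc2 only at pseudocount 1, and 6 with all 4 sperm samples. Leaving out 1 sample gave 1 to 2 higher and 0 to 1 lower. Over all genes the calls, higher and lower, went from 242 and 249 to 23 and 90 with TMM, 192 and 880 with DESeq2, 15 and 4 with no filter, 230 and 1529 or 199 and 1792 with limma, 266 and 1214 with all 4 sperm samples, 96 and 76 with single transcripts, and, with 1 sample left out, 83 and 70 or 68 and 49 without testes replicate 1 or 2, and from 60 and 49 without sperm replicate 2 to 606 and 698 without sperm replicate 3. With filterByExpr, 5 members were tested instead of 22, and the calls over all genes were 264 higher and 295 lower of 1976. Its member calls thus come from a smaller set of genes than those of the other settings. With the total without the 10 highest other genes, the calls over all genes were 280 and 165 of 6828. DESeq2 gave no adjusted p for 11 of the 16 named members tested, which are not counted as lost calls.

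The sperm to testes ratio of the summed share turned from 2.46 to 0.725 without Ndufa13, and that of complex I from 2.76 to 0.456; both alternatives, and the total without the 10 highest genes (ratio 2.99), were chosen after seeing the data. With 1 sample left out, the ratio was 2.25 to 2.71 for all members, 2.49 to 3.08 for complex I, 2.51 to 2.92 for complex V, 0.0729 to 0.186 for complex III and 0 to 1.39 for cytochrome c (0.927 with all), which was 1.39 without sperm replicate 3 or 4. The complex V ratio of 2.75 was 2.30 with the total of all transcript classes and 1.78 on summed FPKM. No ratio of shares was computed with TMM factors. The ratio was taken as the measure of stability after the difference in ppm had been seen; by that difference 12 more of the other settings and 4 more with a sample left out would have moved by over 1 SD. The number of members with counts, sperm minus testes, was -52.5, and -25.8 at 3 or more counts, -13.3 when thinned, and -59.5 to -47 with 1 sample left out. The Cyct share of the pair with Cycs, sperm minus testes, was -6.17 percentage points by counts, -20.6 by FPKM, and -12.3 to 0 with 1 sample left out; it rests on 1 Cyct count in testes replicate 2 and is defined in sperm replicate 2 alone of the sperm samples, so it has no value without that sample and compares nothing.

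Among the 14 named members tested and not called, the log2 fold change changed sign for 5. Atp5b was -0.053 and -0.96 with limma at pseudocounts 1 and 0.1. Cycs was -0.11 with TMM, -0.38 and -1.84 with limma, -0.035 with all 4 sperm samples and -5.13 to 0.92 with 1 sample left out. Ndufv3 was -0.12 with TMM and -0.017 and -0.85 with limma. Uqcr10 was 0.061 with the total without the 10 highest genes and -5.23 to 0.40 with 1 sample left out, and Ndufaf7 -1.28 to 0.14. The cause was not tested in any of these cases.

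Same-numbered sperm and testes samples did not deviate together (r = -0.0194 and -0.0504 over 6904 genes). At these depths counting noise can also give an r near 0. The check therefore cannot show whether same-numbered samples came from the same mice. With the replicate number as a block over all 6 samples, 2 members were higher and 1 lower, and 163 and 103 of all genes; Ndufa13 was 1.36 (adjusted p = 0.0497) and Atp5f1 2.69 (adjusted p = 0.0254).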
